A study of Mus musculus with 4 samples.

Results

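The collagen genes of the mouse other than *Col3a1* and *Col5a2* were followed in 4 lists of accessible regions from the aorta. They were taken as the protein-coding genes of GENCODE vM21 with a symbol of the form Col, number, a, number. This gave 44 genes, of which 42 were kept after setting *Col3a1* and *Col5a2* aside, out of 21938 protein-coding genes. The symbol rule used no measured value, but the genes were chosen with earlier results of these data known. By the known architecture of their protein chains, the 42 fell into 9 fibrillar genes, 9 FACIT genes (collagens with interrupted triple helices that attach to fibrils), 6 basement membrane genes (collagen IV), 6 beaded filament genes (collagen VI), 4 transmembrane genes, 3 short-chain network genes, 2 multiplexin genes (collagens XV and XVIII), the anchoring fibril gene *Col7a1*, and 2 further genes, *Col26a1* and *Col28a1*.

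Collagens are triple helices of 3 chains, and each chain is the product of its own gene. Fibrillar collagens bear the tension in the adventitia and media of the aorta. Collagen IV forms the sheet-like basement membrane around each vascular smooth muscle cell (VSMC) and under the endothelium, where collagens XV and XVIII also lie, and collagen VI links cells to the interstitial matrix. Transcription of collagen genes is known to depend on the promoter together with enhancers in introns and in the flanks, and open chromatin at such elements can be cut by the transposase Tn5, which is what ATAC-seq measures.

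The libraries came from aortic nuclei of untreated mice at 60 days of age (P60), either control (Col3a1+/+) or VEDS (Col3a1G938D/+, heterozygous for a glycine substitution in collagen III, as a model of vascular Ehlers-Danlos syndrome). Each genotype had 1 female and 1 male library, and each library pooled the aortas of 2 mice. Nuclei of all aortic cell types were analyzed together, so that fewer cells of a type and less accessible DNA per cell cannot be told apart. The lists were of very unequal length, namely 21176 peaks for control female, 1236 for control male, 504 for VEDS female and 41444 for VEDS male mice, and the median number of fragments over a summit was 14, 7, 6 and 22, in the same order. All 6 VSMC markers had a promoter peak in each of the long lists (the control female, then the VEDS male), against 1 and 4 of 6 endothelial, 3 and 2 of 6 fibroblast (*Col1a1* is among these), 0 and 1 of 6 immune, 1 and 2 of 6 adipocyte, 2 and 3 of 6 striated muscle, 2 and 3 of 6 chondrocyte, 0 and 1 of 6 epithelial, and 1 and 4 of 6 neural or Schwann cell markers. Over all protein-coding genes 47.4% and 58.5% had a promoter peak, so that 4 of 6 in the VEDS male list is near the background. *Cdh5*, *Dcn*, *Ptprc* and *Adipoq* had none in any list, and neither short list held a promoter peak of any marker. The part of cell composition in the results was not tested. Genotype, sex and depth are not separable here, because the long lists differ in both genotype and sex and because the lists of a genotype differ so much in length.

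Promoters of the 42 collagen genes were mostly without a peak in the control female library and mostly with one in the VEDS male library. A promoter peak, within 3 kb of any annotated transcription start site (TSS) of the gene, was found for 9 genes in the control female library (21.4%, 95% Wilson interval 11.7 to 35.9), for 0 genes in the control male, for 0 in the VEDS female, and for 25 in the VEDS male (59.5%, 44.5 to 73). Over all protein-coding genes these shares were 47.4%, 1.56%, 1.49% and 58.5%, in the same order of libraries. The collagen genes were thus below the background in the control female list and close to it in the VEDS male list. In the short lists 0 of 42 allows a share of up to 8.38%, which includes the background, so that a lack of collagen promoters was not detectable at this depth. These intervals cover counting error only and treat genes that share a promoter peak as independent.

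**Figure D1:**
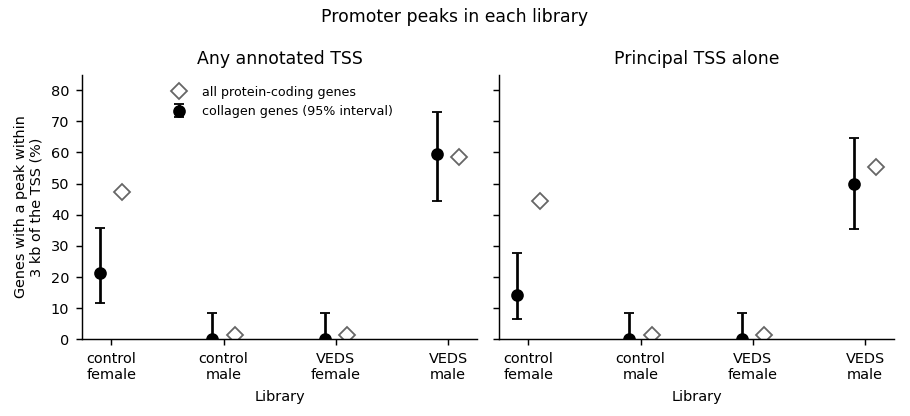
Share of genes (%) with a peak within 3 kb of a TSS in each of the 4 libraries, for the 42 collagen genes (filled circles, with 95% Wilson intervals) and for all protein-coding genes (open diamonds), counting any annotated TSS (left) or the principal TSS of each gene alone (right). The collagen genes lie below the background in the control female library (21.4% against 47.4%) and beside it in the VEDS male library (59.5% against 58.5%).

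All 9 genes with a promoter peak in the control female list also had one in the VEDS male list, 16 had one in the VEDS male list alone, and 17 in neither. Of the 33 collagen genes without a promoter peak in the control female list, 48.5% had one in the VEDS male list (32.5 to 64.8), while the share was 21.4% over the 11543 protein-coding genes without one. Among the 16, *Col4a3* with *Col4a4* and *Col4a5* with *Col4a6* were each counted from the same peaks. The interval treats such genes as independent. With the VEDS male list shortened to its 21176 peaks of highest −log10 q, 14 collagen genes had a promoter peak (33.3%, 21 to 48.4, against 49.9% of all genes), and 6 of the 33 were added (18.2%, 8.61 to 34.4, against 9.16%). With the principal TSS alone, the counts were 6 in the control female list (14.3% against 44.4% of all genes) and 21 in the VEDS male list (50% against 55.3%). Several genes have annotated starts inside the gene, and the peaks of *Col4a2* and *Col15a1* in the control female list and those of *Col2a1*, *Col9a1* and *Col13a1* in the VEDS male list stood at such starts.

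The collagen promoter peaks also ranked low within their lists. In the control female list their median rank by −log10 q was at 63.1% of the list (quartiles 43.7 to 69.4, 12 peaks), where promoter peaks of all genes had their median at 35.4%. In the VEDS male list the medians were 55.1% (34.3 to 81.9, 35 peaks) and 31.5%. Peaks distant from promoters did not show this order in both lists, with medians of 72.7% at collagen genes and 63% overall in the control female list, and 51.6% and 59.9% in the VEDS male list. The content of CpG dinucleotides, which is high at the promoters of widely expressed genes, was low at collagen promoters. The ratio of observed to expected CpG in the 1000 bases around the principal TSS had a median of 0.445 over the 42 genes and 0.571 over all protein-coding genes. Among genes with a principal promoter peak in both long lists it was 0.442 for 6 collagen genes, from 0.301 at *Col1a1* to 0.823 at *Col5a1*, and 0.754 for 9656 genes overall. With a peak in the VEDS male list alone it was 0.451 for 15 collagen genes and 0.633 for all such genes. The order was the other way for genes with a peak in neither list, at 0.374 for 21 collagen genes and 0.219 for 9733 genes in all.

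Any peak in the gene body or within 20 kb was found for 28 collagen genes in the control female list (66.7%, 51.6 to 79), for 1 in the control male (2.38%, 0.422 to 12.3), for 1 in the VEDS female (2.38%), and for 36 in the VEDS male (85.7%, 72.2 to 93.3). The background was 64.1%, 4.61%, 3.2% and 73.5%, in the same order, over genes with a median length of 17.4 kb, while the collagen genes had a median length of 114 kb and so offered more sequence in which to find a peak. Per 100 kb of gene and flanks, the collagen genes had 1.28 peaks in the control female list (1.03 to 1.58, 86 peaks) and 2.52 in the VEDS male list (2.15 to 2.93, 169 peaks). The windows of all protein-coding genes had 1.24 and 2.37 peaks per 100 kb, which lie within these Poisson intervals.

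Introns held more of the collagen peaks than any other kind of place. The intron share over all peaks was not counted. Collagen genes are long (median 114 kb against 17.4 kb), so this is not shown to be particular to them. In the control female list 44 of the 86 were in introns outside promoters, spread over 17 genes, 12 were at a promoter of the collagen gene, 10 and 8 were in the upstream and downstream flanks, and 12 stood within 3 kb of a TSS of a neighboring gene. In the VEDS male list 85 of 169 were intronic in 22 genes, 35 were at promoters, 17 and 13 in the flanks, 2 in exons, and 17 at starts of neighbors. Starts of neighbors held some of the highest-ranked peaks in the windows, such as those of *Pef1* beside *Col16a1*, *Phykpl* beside *Col23a1*, *Mff* beside *Col4a3* and *Pfkfb4* beside *Col7a1*. One peak in the control female list and 9 in the VEDS male list were counted for 2 collagen genes, which share flanks or a promoter.

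**Figure D2:**
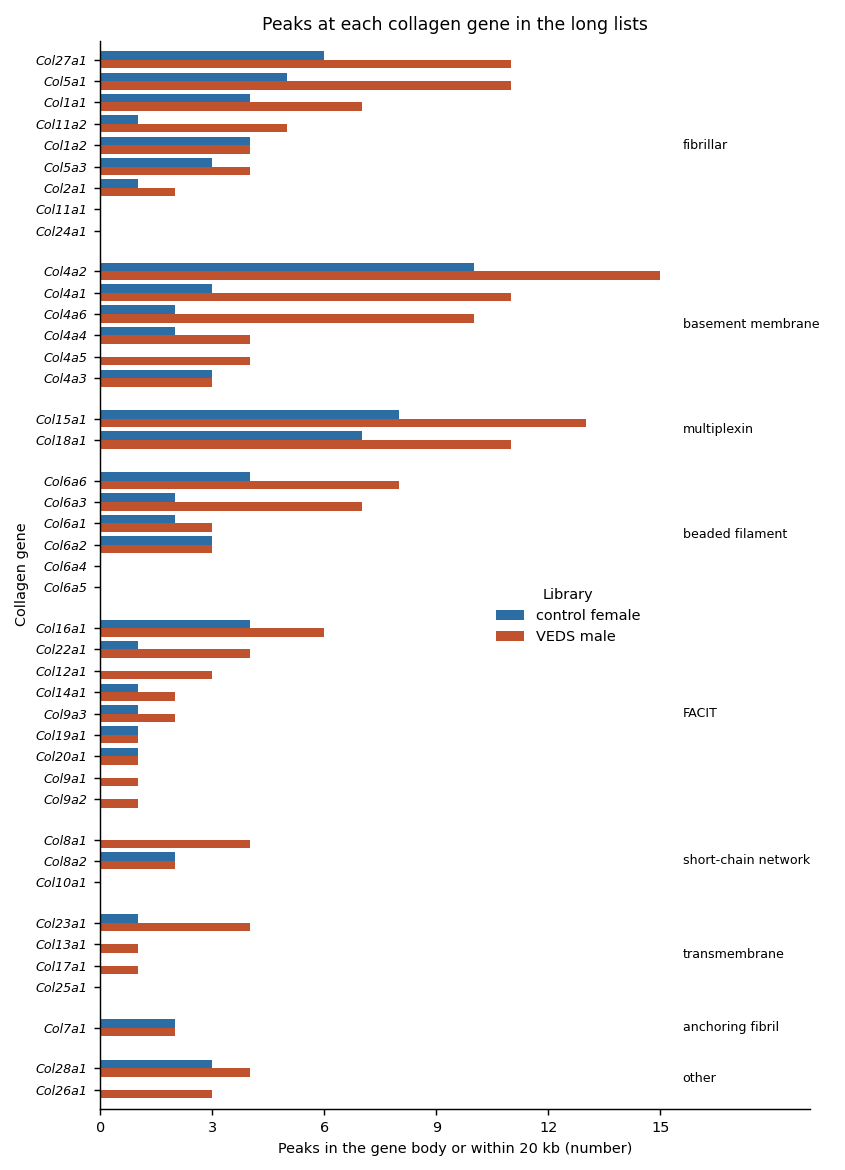
Number of peaks in the body or within 20 kb of each of the 42 collagen genes (rows, grouped by class) in the control female (blue) and VEDS male (orange) lists. *Col4a2* has the most in both, 10 and 15, and 6 genes have none in either list. Some of the 15 are counted for *Col4a1* too.

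The classes differed in density. The multiplexin genes had the highest, with 5.01 peaks per 100 kb in the control female list (2.8 to 8.26) and 8.02 in the VEDS male list (5.14 to 11.9), in both above the background of 1.24 and 2.37. The transmembrane genes had the lowest, with 0.0902 (0.00228 to 0.502) and 0.541 (0.199 to 1.18). FACIT genes also stayed below the background in both lists, at 0.632 (0.289 to 1.2) and 1.47 (0.912 to 2.25). Fibrillar genes had 1.94 (1.24 to 2.88) and 3.55 (2.58 to 4.77), basement membrane genes 1.63 (0.979 to 2.54) and 3.25 (2.3 to 4.46), and beaded filament genes 1.59 (0.793 to 2.84) and 3.03 (1.88 to 4.64). The intervals of these 3 classes overlapped in each list, so that an order among them was not detectable. The fibrillar interval lay above the background in the VEDS male list, and in the control female list its lower limit was at the background. For basement membrane and beaded filament genes the background lay within the interval in both lists. The short-chain genes had 0.701 and 2.1 and *Col7a1* 2.81 and 2.81, on 2 to 6 peaks, and *Col26a1* with *Col28a1* had 0.721 and 1.68. Peaks of 1 gene share that gene's cells and are not replicates, so that the intervals describe counting only. Classes were compared without a test between genes.

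**Figure D3:**
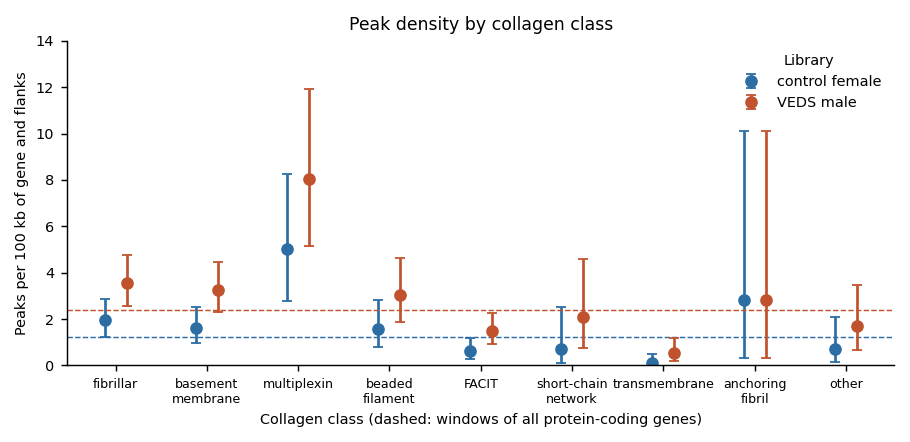
Peaks per 100 kb of gene body and 20-kb flanks for the 9 collagen classes in the control female (blue) and VEDS male (orange) lists, with 95% Poisson intervals. Dashed lines mark the windows of all protein-coding genes, at 1.24 and 2.37. The intervals of multiplexin genes lie above their line in both lists, and those of FACIT and transmembrane genes below it. The interval of fibrillar genes lies above its line in the VEDS male list.

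Among the fibrillar genes, *Col1a1* (chr11:94936224-94953042) and *Col1a2* (chr6:4504814-4541544) encode the chains of collagen I, the most abundant fibrillar collagen. *Col1a1* had 4 peaks in the control female list against 7 in the VEDS male list, the densest of the class at 7.04 and 12.3 per 100 kb. Its promoter summit, −77 bases from the principal TSS in the control female library, had 21 fragments at rank 8078 of 21176, and 49 in the VEDS male library at rank 9957 of 41444. A second promoter peak lay in the first intron (16 and 31 fragments). The strongest peak at *Col1a1* was not the promoter but a region upstream, with its summit at −7292 in both long lists, with 24 fragments in the control female library against 76 in the VEDS male. In the VEDS male list it was the highest-ranked peak of any collagen gene outside promoters (rank 2515).

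*Col1a2* had 4 peaks in each long list, at a density of 5.21 per 100 kb. The peak over its principal start had 12 fragments in the control female library against 48 in the VEDS male. A second promoter peak of the control female list (chr6:4506325-4506451), with 14 fragments and the better rank (11093, against 14161 for the peak over the start), had no partner in the VEDS male list. The bases just before the start are shown because this is the collagen promoter with the highest relative ratio between the long lists. They come from the RefSeq promoter entry, GRCm38.p6, chr6:4505418-4505492, plus strand, in no annotated exon, and capitals mark a GC box.
Col1a2 promoter: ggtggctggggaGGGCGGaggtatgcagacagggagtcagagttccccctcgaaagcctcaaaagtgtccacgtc

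Far upstream of *Col1a2*, peaks clustered in the interval from −17002 to −15435 bases, and no other collagen region had peaks in 3 lists. The control female peak (chr6:4488354-4488602) had its summit at −17002 with 18 fragments, and the VEDS male peak (chr6:4488439-4488629) at −16983 with 38 fragments. The VEDS female list had its one collagen peak here, chr6:4488606-4488871, with 3 fragments over the summit at −16683 and rank 495 of 504. It overlapped the VEDS male peak by 24 bases and began 3 bases after the end of the control female peak, so that the 3 lists marked adjoining rather than identical stretches. With 3 fragments this peak is at the edge of what the list can show. The VEDS male list had further peaks at −15984 (16 fragments) and −15435 (41 fragments), the latter at rank 8294. The control male list had no peak there. The 200 bases around the control female summit (chr6:4488391-4488590) and around the VEDS male summit at −15435 (chr6:4489958-4490157) are printed because they hold the summit nearest to the peaks of the other lists and the strongest one listed in the VEDS male library alone, from the GRCm38 sequence, plus strand. Neither held a match to AP-1, TEAD, MEF2 or CArG, so that no base is in capitals.
Col1a2 upstream, first region: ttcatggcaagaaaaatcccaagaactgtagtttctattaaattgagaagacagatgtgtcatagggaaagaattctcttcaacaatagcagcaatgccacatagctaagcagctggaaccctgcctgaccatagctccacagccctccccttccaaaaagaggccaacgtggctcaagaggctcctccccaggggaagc
Col1a2 upstream, second region: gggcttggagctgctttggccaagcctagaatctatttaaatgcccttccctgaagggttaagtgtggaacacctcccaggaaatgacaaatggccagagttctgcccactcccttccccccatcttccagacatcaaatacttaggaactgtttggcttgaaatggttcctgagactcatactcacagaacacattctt

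*Col5a1* and *Col5a3* encode chains of collagen V, which regulates the diameter of collagen I fibrils, and *Col27a1* encodes a fibrillar collagen of cartilage. *Col5a1* had 5 and 11 peaks, with the promoter summit at −111 (20 fragments) in the control female library and 41 fragments in the VEDS male. Its strongest peak was intronic, at 50450 bases from the start, with 28 and 66 fragments. *Col5a3* had 3 and 4 peaks, with a promoter peak in the VEDS male list alone (11 fragments at −71). *Col27a1* had 6 and 11 peaks, of which 5 and 9 were intronic. The highest of these, at 95245 bases from the start, had 23 fragments in the control female library against 62 in the VEDS male. It is shown (chr4:63310580-63310779, plus strand) with a MEF2 match in capitals, since MEF2 factors act in muscle.
Col27a1 intron: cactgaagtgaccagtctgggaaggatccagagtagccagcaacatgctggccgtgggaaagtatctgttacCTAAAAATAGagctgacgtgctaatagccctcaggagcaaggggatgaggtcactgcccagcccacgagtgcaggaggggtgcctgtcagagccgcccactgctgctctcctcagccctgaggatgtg

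The remaining fibrillar genes were *Col2a1*, *Col11a1*, *Col11a2* and *Col24a1*. *Col2a1*, the main collagen of cartilage, had 1 peak in the control female list, at the start of its neighbor *Tmem106c*, and 2 in the VEDS male list, of which 1 stood at an internal start at 11601 bases with 38 fragments. *Col11a2* had 1 and 5 peaks, all in the flanks, and 1 and 3 of them at starts of the neighbors *Rxrb*, *Slc39a7*, *H2-Ke6* and *Ring1*. *Col11a1* and *Col24a1* had 0 in both long lists. The one collagen peak of the control male list was 1122 bases wide in the downstream flank of *Col11a1* (chr3:114238368-114239489), with 6 fragments over the summit, and 100% of its bases were masked as repeats.

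The basement membrane genes lie in 3 head-to-head pairs, *Col4a1* with *Col4a2*, *Col4a3* with *Col4a4*, and *Col4a5* with *Col4a6*, and each pair shares its promoter region. At the shared starts of the 3 pairs the control female list had no peak, and the VEDS male list had one at every pair. At *Col4a1* and *Col4a2* the peak chr8:11312677-11312917 had 32 fragments (rank 17696). At *Col4a3* and *Col4a4* the peak had 9 fragments (rank 37190), and at *Col4a5* and *Col4a6* both peaks had 10. The last 2 pairs are thus low in the list, which has 41444 peaks.

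*Col4a2* (chr8:11312805-11449287) was nevertheless the collagen gene with the most peaks in both long lists, with 10 in the control female list against 15 in the VEDS male (5.67 and 8.5 per 100 kb, the densest of the class). Its VEDS male peaks from −13264 to 19071 bases were counted for *Col4a1* too. Its first place in that list rests on these shared peaks, since *Col15a1* had 13 peaks, none shared with another collagen gene. The 10 control female peaks all lay between 45277 and 106650 bases from the start, deep in the introns, and 9 VEDS male peaks lay in about the same stretch. Their fragments ranged from 8 to 23 in the control female library and from 20 to 58 in the VEDS male. At 2 places a single wide VEDS male peak covered a pair of control female peaks, and 1 VEDS male peak in this stretch had no partner. One of the peaks, at 93111 bases with 10 and 33 fragments, stood at an internal annotated start and so counted as the promoter peak of *Col4a2*. The highest-ranked *Col4a2* peak of the VEDS male list had 53 fragments and is shown (chr8:11357939-11358138, plus strand) with a CArG match in capitals, the sequence bound by serum response factor in smooth muscle.
Col4a2 intron: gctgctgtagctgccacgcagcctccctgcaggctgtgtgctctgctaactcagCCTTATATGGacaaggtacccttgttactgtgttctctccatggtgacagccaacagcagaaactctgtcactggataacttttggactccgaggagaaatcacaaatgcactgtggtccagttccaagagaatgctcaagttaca

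*Col4a1* had 3 and 11 peaks. The highest lay in its downstream flank (chr8:11183553-11183909 in the control female list), with 30 and 75 fragments, and at rank 2364 it was the best-placed collagen peak outside promoters in the control female list. An intronic peak 63188 bases from the start had 24 and 47 fragments. It is shown on the minus strand (chr8:11249538-11249737), the strand of the gene, because it held both an AP-1 and a TEAD match, in capitals.
Col4a1 intron: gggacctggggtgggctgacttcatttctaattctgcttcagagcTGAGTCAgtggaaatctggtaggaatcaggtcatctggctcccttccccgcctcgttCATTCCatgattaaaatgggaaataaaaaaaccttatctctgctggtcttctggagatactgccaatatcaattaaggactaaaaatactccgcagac

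The other chains of collagen IV, which occur in fewer basement membranes, had at most 3 peaks in the control female list, the number of *Col4a1* as well. *Col4a3* had 3 in each long list, *Col4a4* 2 and 4, *Col4a5* 0 and 4, and *Col4a6* 2 and 10. *Col4a5* and *Col4a6* lie on the X chromosome, and the long lists differ in sex. The part of X copy number was not tested. A VEDS male peak of *Col4a5* had 100% of its bases masked as repeats, and one of *Col4a6* had 65.7%. *Col4a6* is also expressed in smooth muscle, and 7 of its 10 VEDS male peaks were intronic. It had the lowest density of the class with a peak in the control female list (0.574), and *Col4a5* the lowest in the VEDS male list (1.58).

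The multiplexin genes encode basement membrane collagens whose C-terminal fragments are endostatin (*Col18a1*) and restin (*Col15a1*). *Col15a1* (chr4:47208161-47313167) had 8 and 13 peaks, and all 8 of the control female peaks overlapped a VEDS male peak. The strongest, in an intron 39614 bases from the start, had 29 fragments in the control female library (rank 2739) and 66 in the VEDS male. The next, at 13419, had 27 and 46, and another at 85840 had 24 and 62. The peak at its principal start was found in the VEDS male list alone and was weaker, with 14 fragments. The strongest element is shown (chr4:47247675-47247874, plus strand) with a CArG match in capitals.
Col15a1 intron: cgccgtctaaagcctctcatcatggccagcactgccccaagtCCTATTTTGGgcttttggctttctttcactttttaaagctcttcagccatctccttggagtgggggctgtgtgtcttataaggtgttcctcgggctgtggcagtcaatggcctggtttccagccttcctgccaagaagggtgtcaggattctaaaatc
*Col18a1* (chr10:77052178-77166548) had 7 and 11 peaks, of which 6 and 6 overlapped the other list. Its promoter peak stood at the start of the gene farthest upstream, −52868 bases from the principal TSS, with 17 and 50 fragments, and was the highest-ranked collagen promoter of the VEDS male list (rank 6325). At the principal TSS no peak was listed. In the first intron, 15661 bases from the principal TSS, a peak had 20 fragments in the control female library against 72 in the VEDS male.

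**Figure D4:**
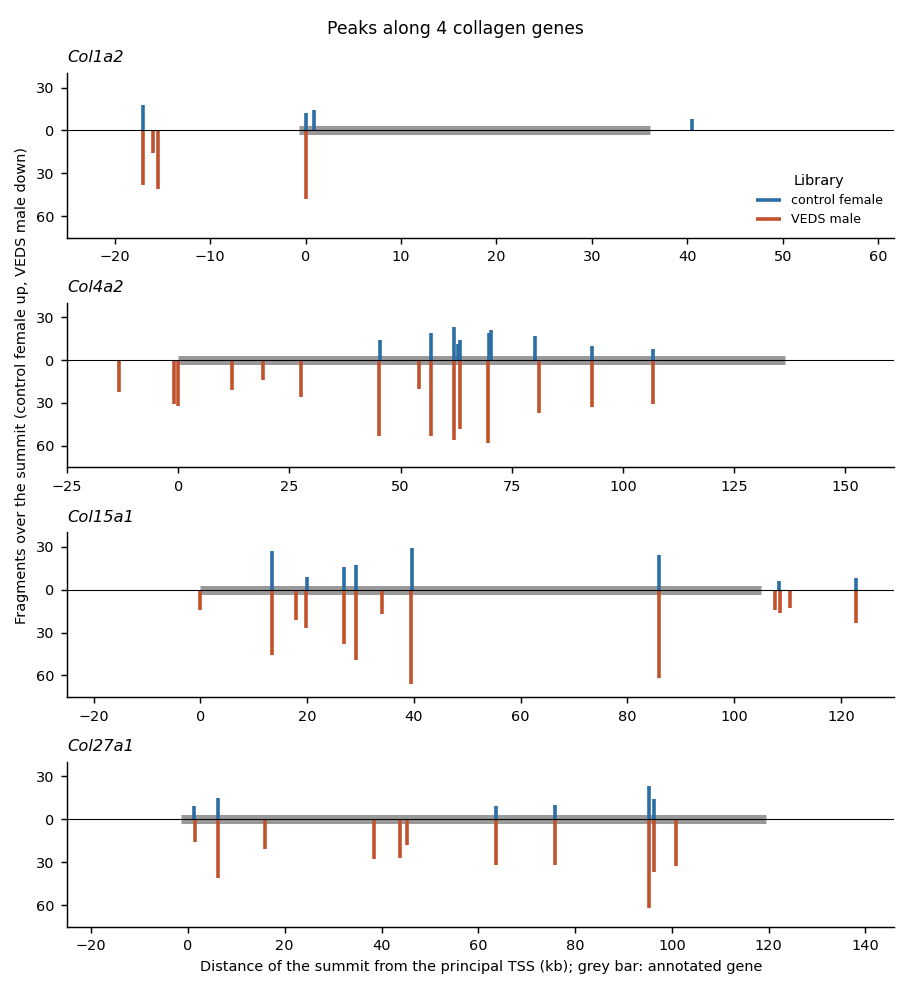
Fragments over each peak summit (vertical axis, control female upward in blue, VEDS male downward in orange) by distance from the principal TSS in kb along *Col1a2*, *Col4a2*, *Col15a1* and *Col27a1*, with the annotated gene in grey. The peaks of *Col1a2* lie at the promoter and in the flanks, and those of the other genes mostly in introns, where the tallest have 23 to 29 fragments in the control female library.

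The beaded filament genes encode the chains of collagen VI, a network around mesenchymal cells. *Col6a2* had the highest-ranked collagen promoter peak of the control female list (rank 3403), with 24 fragments there and 38 in the VEDS male library. It had 3 peaks in each list. Its head-to-tail neighbor *Col6a1* had 2 and 3, with a promoter peak in the VEDS male list alone (35 fragments at 47 bases). The chains of both genes assemble together, and 1 promoter was listed in both long lists and the other in 1, so that stretches before both starts are printed, from RefSeq entries on GRCm38.p6, minus strand, chr10:76623631-76623830 and chr10:76726169-76726244. Capitals mark a GC box, which was found in the *Col6a2* stretch alone.
Col6a2 promoter: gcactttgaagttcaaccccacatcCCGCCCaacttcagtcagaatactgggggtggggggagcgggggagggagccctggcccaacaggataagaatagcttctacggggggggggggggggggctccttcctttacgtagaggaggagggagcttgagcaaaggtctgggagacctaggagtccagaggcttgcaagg
Col6a1 promoter: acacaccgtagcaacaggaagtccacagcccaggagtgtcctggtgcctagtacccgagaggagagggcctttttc
*Col6a3*, the third classical chain, had 2 and 7 peaks, with promoter peaks of 26 fragments at −56 and of 29 at an internal start in the VEDS male list. *Col6a6* had 4 and 8, all intronic or at the promoter. *Col6a4* and *Col6a5* had 0. The densest gene of the class was *Col6a2* in the control female list (4.42 per 100 kb) and *Col6a3* in the VEDS male list (5.93).

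Among the FACIT genes, *Col16a1* stood apart with 4 and 6 peaks (4.37 and 6.56 per 100 kb) and was the one gene of the class with a promoter peak in both long lists, with 11 and 39 fragments at its start. A region upstream of it, with its summit at −10497, was stronger than the promoter, with 22 fragments (rank 3975) and 62 (rank 3417). It is shown (chr4:130037243-130037442, plus strand) because a MEF2 and an AP-1 match, in capitals in this order, lie in 1 element.
Col16a1 upstream: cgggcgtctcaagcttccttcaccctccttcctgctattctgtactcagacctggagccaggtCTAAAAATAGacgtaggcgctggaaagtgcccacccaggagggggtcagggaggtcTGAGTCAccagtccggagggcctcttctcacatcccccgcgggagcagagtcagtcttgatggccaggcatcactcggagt
*Col14a1*, a fibril-associated collagen, had 1 and 2 peaks, all intronic, with 6 and 12 fragments at the shared one, and no promoter peak. *Col12a1*, *Col22a1* and *Col9a1* had a promoter peak in the VEDS male list alone, with 13, 22 and 11 fragments, and 0 and 3, 1 and 4, and 0 and 1 peaks in all. *Col19a1* had 1 and 1, the lowest density of a FACIT gene in the VEDS male list (0.274), and *Col20a1* 1 and 1, at the start of *Arfgap1*. *Col9a2* had 0 and 1 and *Col9a3* 1 and 2, the control female one at the start of *Mrgbp*.

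In the remaining classes few peaks were found. *Col8a1*, a short-chain collagen of vessels, had 0 and 4, with a promoter peak of 14 fragments at −965 in the VEDS male list. *Col8a2* had 2 and 2, and *Col10a1*, of hypertrophic cartilage, 0 and 0. Of the transmembrane genes, *Col23a1* had 1 and 4, *Col13a1* 0 and 1, *Col17a1* of hemidesmosomes 0 and 1, and *Col25a1* of neurons 0 and 0, although *Col25a1* is the longest of the 42 at 468 kb. *Col23a1* and *Col13a1* had promoter peaks in the VEDS male list, with 14 and 11 fragments. *Col7a1* of anchoring fibrils had 2 and 2, all at starts of neighbors. *Col28a1* had 3 and 4, and *Col26a1* 0 and 3. In sum, 28 genes had a peak in both long lists, 8 in the VEDS male list alone, 0 in the control female list alone and 6 in neither. Peaks at starts of neighbors are part of these counts. With the nearest coding TSS required to be a collagen gene's, the control female list had 22 genes and the VEDS male list 32. The share over all protein-coding genes was not counted in that setting.

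Nearly all collagen regions of the shorter of the long lists recurred in the other. Of the 86 control female peaks at collagen genes, 93% overlapped a VEDS male peak by at least 1 base (85.6 to 96.8), against 95% of all 21176. The 80 shared peaks had their summits a median of 48 bases apart, and the 20050 shared peaks overall 36 bases. Of the 169 VEDS male peaks, 46.2% overlapped a control female peak (38.8 to 53.7), against 47.6% of all. Promoter and distal peaks are given apart, without a test between them. Of 35 VEDS male promoter peaks at collagen genes, 31.4% were in the control female list (18.6 to 48), against 62.6% of all promoter peaks. Of 117 VEDS male peaks outside promoters, 47% were in the control female list (38.2 to 56), against 37.6% overall.

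Fragments over the summit were then compared at the 9 collagen promoters with a peak in both long lists. Over 10557 shared promoter peaks of all genes the VEDS male library had a median of 2.53 times the fragments of the control female library, and each ratio was divided by this value. *Col1a2* (1.58, 95% exact interval 0.829 to 3.27) was past 1.5 and *Col6a2* (0.627, 0.366 to 1.09) was below 0.667, where 6.21% and 5.23% of all shared promoter peaks lay. Both intervals include 1. The others were *Col16a1* at 1.4, *Col4a2* at 1.31, *Col18a1* at 1.16, *Col15a1* at 0.94, *Col1a1* at 0.924, *Col5a1* at 0.811 and *Col27a1* at 0.704, all with intervals that include 1. On the deposited fold enrichment the relative ratio of *Col1a2* was 1.46, below 1.5.

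**Figure D5:**
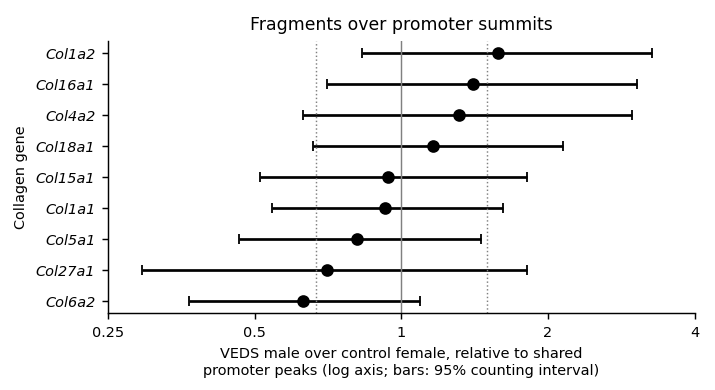
Fragments over the promoter summit in the VEDS male library relative to the control female library, divided by the median ratio of 10557 shared promoter peaks (log axis), for the 9 collagen genes with a promoter peak in both. Bars are 95% exact binomial intervals of the counts, the solid line marks 1 and dotted lines 0.667 and 1.5; every interval includes 1.

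Outside promoters, 57 collagen peaks of the control female list had a partner in the VEDS male list, and their median ratio relative to the 9493 shared distal peaks was 1.12 (lowest 0.495, highest 1.9). This comparison was added after the promoter values were seen. A ratio of at least 1.5 was found for 8 of 57 (14%, background 9.31%) and of at most 0.667 for 2 of 57 (3.51%, background 10.7%). The highest were a peak upstream of *Col6a2* at −10498 (9 and 41 fragments, 1.9, interval 0.909 to 4.44) and an intronic peak of *Col4a2* at 62952 (11 and 48 fragments, 1.82, 0.931 to 3.88). The VEDS male partner of the latter was a wide peak with its summit at 63439, nearer to another control female peak at 63333, for which the same 48 fragments gave 1.43. At 2 places in *Col4a2* 1 VEDS male peak was thus the partner of 2 control female peaks and entered the 57 ratios again. The lowest were downstream of *Col4a4* (16 and 19 fragments, 0.495, 0.241 to 1.03) and in an intron of *Col4a1* at 52764 (12 and 17 fragments, 0.59, 0.266 to 1.35). Each of these intervals includes 1. With 1 library on each side the ratios compare these libraries and not the genotypes.

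Consensus sequences were counted on both strands in 300 bases around each summit. In distal windows of collagen genes, AP-1 (TGAGTCA) was found in 14 of 62 in the control female list (22.6%, 14 to 34.4, all distal windows 18.2%) and in 24 of 117 in the VEDS male list (20.5%, 14.2 to 28.7, all 15.4%). TEAD (CATTCC) was found in 32.3% (22 to 44.6, all 24.1%) and 25.6% (18.6 to 34.2, all 22.7%), MEF2 in 11.3% (5.58 to 21.5, all 9.11%) and 11.1% (6.61 to 18.1, all 7.93%), and CArG in 4.84% (1.66 to 13.3, all 4.24%) and 3.42% (1.34 to 8.46, all 3.91%). In each case the background lay within the interval, so that a difference was not detectable with these numbers of windows. At promoter summits the GC box (GGGCGG) was found in 10 of 12 windows in the control female list (83.3%, 55.2 to 95.3, all 65.5%) and in 16 of 35 in the VEDS male list (45.7%, 30.5 to 61.8, all 56.9%), and the CCAAT box (CCAAT) in 41.7% and 34.3% (all 40.6% and 36.3%). AP-1 was found in 0 of 12 promoter windows in the control female list and in 5 of 35 in the VEDS male list (14.3%, 6.26 to 29.4, all 6%, just outside the interval). The RefSeq promoter sequences, which run from 250 bases before to 50 after the start, matched 34 of the 42 genes. *Col12a1*, *Col14a1*, *Col1a1*, *Col22a1*, *Col26a1*, *Col2a1*, *Col4a3* and *Col9a3* were not matched. The GC box was in 61.8% of the 34 (45 to 76.1) and 48.4% of 16515 promoters, and the CCAAT box in 32.4% (19.1 to 49.2) and 38.6%. A match is a description of the letters and not a sign of binding.

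Genes that modify, secrete, crosslink and bind collagen chains were counted in the long lists, beside the shares over all protein-coding genes (47.4% for the control female list, 58.5% for the VEDS male). Of 15 genes for hydroxylation and folding, 10 had a promoter peak in the control female list and 14 in that of the VEDS male, among them *P4ha1* and *P4hb* of prolyl 4-hydroxylase, *Plod2* of lysyl hydroxylase and *Serpinh1*, the collagen chaperone, in both. *Crtap* and *Plod1* had one in the VEDS male list alone, and *Colgalt2* in none. Of 7 annotated genes for secretion and processing 6 and 7 had one, among them *Bmp1*, the C-proteinase of procollagen. Of 5 crosslinking genes 3 and 5 did, with *Lox*, *Loxl1* and *Loxl3* in both lists, and of 10 receptors 5 and 6, near the shares over all genes, with *Itga1*, *Itgb1* and *Ddr1* in both. *P4hb* and *Itgb1* also had a promoter peak in the VEDS female list, and no gene of these lists had one in the control male list. These lists were compared by counts only.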

How the data were processed

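ATAC-seq had been run on 4 libraries of aortic nuclei, 2 for each genotype. The groups came from the sample annotations. The authors aligned reads to mm10 (GRCm38), removed duplicates by barcode, corrected cut sites, called narrow peaks in each library with MACS2 and dropped blacklisted regions. The aligner is not given in the sources used here. The deposited lists hold, for each peak, a score, the fold enrichment (a ratio to local background of the same library), −log10 p, −log10 q and the offset of the summit. Total fragments were not used here.

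From these, the fragments over a summit were recovered as the whole number giving both the deposited fold enrichment (pseudocount 1) and the deposited −log10 p within 0.002, in 99.3% to 99.9% of the peaks of each list. In 500 peaks simulated with the same formulas 100% were recovered, which checks the inversion alone. Whether the recovered numbers count whole fragments or corrected cut sites was not tested. Peaks were joined to GENCODE vM21 (promoter 3 kb, flanks 20 kb) and to GRCm38.p6 sequence. The principal TSS is that of the principal APPRIS transcript. Shares have 95% Wilson intervals, densities Poisson intervals and ratios exact binomial intervals, all for counting error only. Called genes were set beside all 21938 protein-coding genes. Genotypes were not tested: an exact permutation test of 2 libraries against 2 has 0.333 as its smallest p.

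The genes and lists were chosen with earlier results of these data known. Every member was to be named with its counts, with full values for members with a promoter peak in 1 long list alone, the densest and sparsest of a class, ratios past 1.5, the best-ranked peaks, and peaks far upstream of *Col1a2*. Shares at the principal TSS, ranks, CpG content and the distal ratio were added after the data were seen. Alternatives were stricter −log10 q, equal list lengths, masked repeats, other distances, windows and scalings, and leaving out each library. Python 3.11.15, numpy 2.4.6, pandas 2.3.3, scipy 1.17.1, pysam 0.24.0 and matplotlib 3.10.9 were used.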

Additional observations from a re-analysis of the deposited data

Results flagged for a closer look

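The difference between VEDS and control had opposite directions in the sexes. For collagen genes with a promoter peak, VEDS minus control was −9 in the female libraries (0 and 9 genes) and 25 in the male libraries (25 and 0 genes). The shares over all protein-coding genes ran the same way, with 1.49% against 47.4% in the females and 58.5% against 1.56% in the males, and the VEDS male share of collagen genes (59.5%) was close to that background. For collagen genes with any peak in the window it was −27 in the females (1 and 28) and 35 in the males (36 and 1). The shares over all protein-coding genes again ran the same way. They were 3.2% against 64.1% in the females and 73.5% against 4.61% in the males. With 1 library for each sex and genotype, the difference between the sexes was not tested. List length moved in the same way, with 504 against 21176 peaks in the females and 41444 against 1236 in the males, and its part cannot be told apart from genotype and sex.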

How the results depend on the processing

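Of 237 alternative values, 166 stayed within the limits set for them and 71 moved. Whether a value reversed its direction was not assessed. No paired analysis was possible because no result came from a test: the labels match the libraries of the genotypes by sex, with 1 library of each genotype in each sex. Leaving out a library moved the collagen genes with a promoter peak in either library of a genotype to between 0 and 9 for control and between 0 and 25 for VEDS: without the control female or the VEDS male library the count of that genotype was 0. With −log10 q of at least 10, 2 collagen genes had a promoter peak in the control female list and 14 in the VEDS male list. With every list shortened to 504 peaks, the long lists had 0 promoter peaks, 0 genes with any peak and 0 distinct peaks, and the control male list 0. The shares over all protein-coding genes were not counted at −log10 q of at least 10 or with 504 peaks. With the VEDS male list shortened to the control female length, an alternative chosen after seeing the data, 14 genes had a promoter peak. That was 33.3% of the collagen genes, against 49.9% of all genes. Distinct control female peaks numbered 54 at −log10 q of at least 5, 28 at 10 and 55 in gene bodies alone, and VEDS male peaks 94 at 10. The single peak of each short list was lost (0) at either limit on −log10 q, with flanks of 5 kb and in gene bodies alone, and that of the control male list also without masked peaks. The overlap was 100% of control female and 29.8% of VEDS male peaks at −log10 q of at least 10, and 75.6% and 70% with the shortened VEDS male list. For all peaks the overlap was not counted under these settings, so whether collagen peaks depart from it there is not known. In the full lists they were near it (93% against 95%, and 46.2% against 47.6%).

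At −log10 q of at least 10 the control female densities per 100 kb were 0.211 (FACIT), 0.599 (basement membrane), 0.144 (beaded filament), 0.727 (fibrillar) and 1.34 (multiplexin), and those of the VEDS male list 0.842 (FACIT), 1.54 (basement membrane), 2.18 (fibrillar), 4.01 (multiplexin) and 0.18 (transmembrane). With the shortened VEDS male list they were 0.702 (FACIT), 1.54 (basement membrane), 2.18 (fibrillar), 3.67 (multiplexin), 0.48 (*Col26a1* with *Col28a1*) and 0.18 (transmembrane). The windows of all protein-coding genes were not counted under these settings. Their densities of 1.24 and 2.37 are for the full lists and cannot be set beside these values. In gene bodies alone *Col7a1* had 0 in both long lists and the transmembrane genes 0 in the control female list. Among the consensus shares, TEAD at control female promoters (8.33% in the main setting) was 0% in windows of 200 bases and 50% at −log10 q of at least 10. The CCAAT box there was 75% in windows of 500 bases, and the GC box 100% at −log10 q of at least 10. At that limit only the promoter windows of *Col1a1* (10.8) and *Col6a2* (18.5) were left in the control female list, so these shares say little. In the main setting the CCAAT box was at 27.4% of distal collagen peaks in each long list (all 32.9% in the control female list, 31.9% in the VEDS male). The CCAAT box at distal control female peaks was 16.1% in 200 bases, 41.9% in 500 and 16.7% at −log10 q of at least 10, and at distal VEDS male peaks 16.2% and 47.9% in 200 and 500 bases. MEF2 at VEDS male promoters (2.86% in the main setting) was 0% in 200 bases and at −log10 q of at least 10, AP-1 at distal VEDS male peaks 29.5% at that limit, and TEAD there 37.6% in 500 bases. The shares over all windows were not counted under these alternatives. A wider window holds more letters and a stricter limit fewer windows; other causes were not tested. Total fragments were not used here. A summit had a median of 7 and 6 fragments in the short lists and of 14 and 22 in the long lists.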
